A study of Mus musculus with 102 samples.

Results

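Calbindin (*Calb1*), calretinin (*Calb2*) and parvalbumin (*Pvalb*) were followed through the central nervous system (CNS) of adult mice, in 51 regions. The genes were taken by symbol, and 3 of the 18193 genes named on the arrays, with 6 probe sets, made up the set. For each gene the probe set with the highest mean over 48 regions was used, which was 1417504_at for *Calb1*, 1451129_at for *Calb2* and 1417653_at for *Pvalb*. *Calb1* had 3 further probe sets, which served as a check, and the other 2 genes had none. Total RNA from punches of frozen brain slices, spinal cord, retina, pituitary and pineal of male Balb/c mice, 7 to 8 weeks old and kept in light-dark cycles or constant darkness, was pooled over 6 time points 4 h apart and hybridised to Affymetrix whole-genome mouse arrays. Each region had 2 arrays from separate pools of animals, and no region was treated. The sources used here do not tell which pools came from constant darkness. Retina, pituitary and pineal were kept out of the tests, as in the study. The tests rest on the 96 arrays of the other 48 regions.

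The 3 genes encode small proteins of the EF-hand family, which bind calcium through a helix-loop-helix motif and buffer its concentration in the cytoplasm. Each protein is a classical marker of neuron classes. Parvalbumin marks fast-spiking interneurons of cortex and striatum and many projection neurons of brainstem and cerebellum. Calretinin marks other interneurons, cerebellar granule cells and periglomerular cells of the olfactory bulb. Calbindin marks Purkinje cells, dentate granule cells and most medium spiny neurons of the striatum. In such punches, fewer cells of a type and less RNA per cell cannot be told apart.

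All 3 genes varied strongly among the 48 regions. The deposited values are log2 expression values. *Calb1* spanned 4.85 between its highest and lowest regional mean, a 28.9-fold range, *Calb2* spanned 5.13 (35.0-fold) and *Pvalb* spanned 6.68 (103-fold). The SD among regional means was 1.13 for *Calb1*, 1.51 for *Calb2* and 2.00 for *Pvalb*, which placed them at ranks 480, 122 and 15 among 45037 probe sets. All 3 passed the F test over the 48 regions (limma, adjusted p = 2.91e-21 for *Calb1*, 7.23e-39 for *Calb2* and 2.41e-44 for *Pvalb*), as did 91.1% of all probe sets. Against this spread, arrays of the same region differed by a median of 0.19, 0.18 and 0.14 for the 3 genes in that order. The largest such differences were 2.84 for *Calb1* in the inferior colliculus (IC), 0.82 for *Calb2* in the mammillary body (M) and 0.90 for *Pvalb* in the substantia nigra (SN). On the IC array with more *Calb1*, genes of cerebellar cells were raised as well, as given with the colliculi. In the model all regions share 1 residual SD per probe set, 0.37 for *Calb1* and 0.21 for *Calb2* and for *Pvalb*. The IC pair enters that of *Calb1* and so widens the standard error of all *Calb1* comparisons. How many *Calb1* calls turn on this pair was not tested.

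Each region was then compared with the mean of the other 47 and called at an adjusted p under 0.05 (limma). *Calb1* was higher in 16 regions, lower in 15 and not called in 17. *Calb2* was higher in 25, lower in 18 and not called in 5, and *Pvalb* was higher in 20, lower in 24 and not called in 4. Over all probe sets and regions, 13.9% of such comparisons were called higher and 14.7% lower. The median probe set was called in 11 regions, and 9.07%, 0.457% and 0.309% of all probe sets had as many or more regions called as *Calb1*, *Calb2* and *Pvalb*. With either array of a region left out, 6 of the 16 higher and 7 of the 15 lower calls of *Calb1* were kept, against 21 of 25 and 15 of 18 for *Calb2* and 16 of 20 and 22 of 24 for *Pvalb*.

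**Figure D1:**
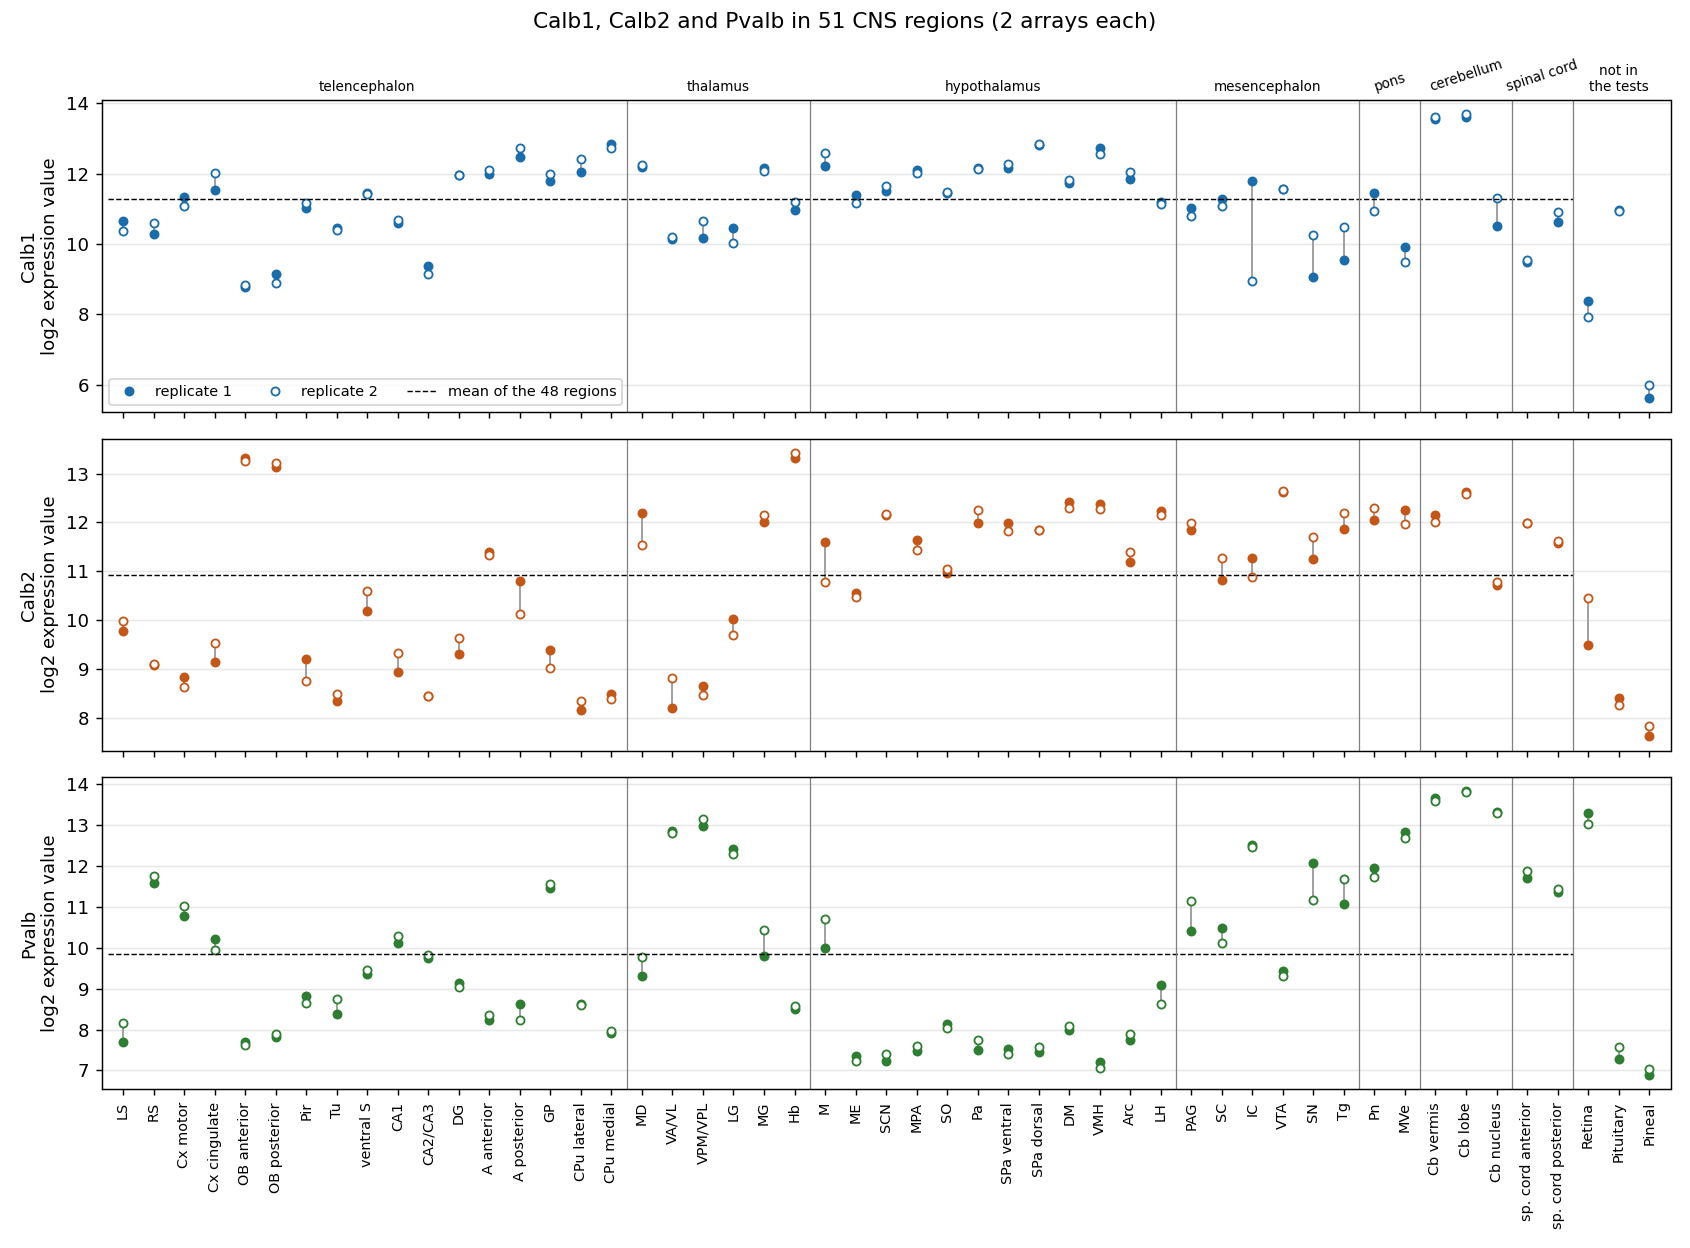
Log2 expression values of *Calb1*, *Calb2* and *Pvalb* (y axes) in 51 CNS regions (x axis, grouped by division), with a filled and an open point for the arrays of a region, a grey line joining them, and a dashed line at the mean of the 48 regions (11.26, 10.92 and 9.85). *Calb1* is highest in the cerebellar cortex, *Calb2* in the habenula and olfactory bulb, and *Pvalb* in the cerebellum, ventral thalamus and brainstem, while 11 of the 12 hypothalamic regions do not exceed 9.09 for *Pvalb*.

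*Calb1* was highest in the cerebellar cortex, the site of Purkinje cells. The arrays read 13.60 and 13.69 in the lobes (Cb lobe) and 13.54 and 13.61 in the vermis (Cb vermis). No array of another region reached these values. Next came the dorsal subparaventricular zone (SPa dorsal, 12.81 and 12.83), the medial caudate-putamen (CPu medial, 12.85 and 12.72), the ventromedial hypothalamus (VMH, 12.74 and 12.56) and the posterior amygdala (A posterior, 12.47 and 12.73), whose arrays overlapped from each region to the next. At the low end were the olfactory bulb (OB), with 8.76 and 8.82 in its anterior and 9.15 and 8.90 in its posterior part, the CA2/CA3 fields of the hippocampus (9.37 and 9.13) and the anterior spinal cord (9.47 and 9.54). Of the 47 neighbouring steps in the order of regional means, 8 separated regions whose arrays did not overlap.

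*Calb2* had another order. The habenula (Hb), an epithalamic nucleus, read 13.33 and 13.43, and the OB read 13.33 and 13.25 in its anterior part and 13.14 and 13.21 in its posterior part. The ventral tegmental area (VTA), a dopaminergic midbrain nucleus, followed with 12.62 and 12.65, then Cb lobe with 12.62 and 12.57. Habenula and anterior OB overlapped, while posterior OB, VTA and Cb lobe each stood apart from the region before them. The lowest values were those of the lateral caudate-putamen (CPu lateral, 8.15 and 8.34), the olfactory tubercle (Tu, 8.35 and 8.49), CPu medial (8.49 and 8.39) and CA2/CA3 (8.45 and 8.44), and these low regions overlapped with their neighbours. In the hypothalamus 11 of the 12 regional means lay between 11.01 and 12.36, and the remaining one, the median eminence (ME), was at 10.52. Of the 47 neighbouring steps, 11 separated regions without overlap.

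*Pvalb* was highest in all 3 cerebellar regions, with 13.83 and 13.82 in Cb lobe, 13.68 and 13.59 in Cb vermis and 13.31 and 13.31 in the cerebellar nucleus (Cb nucleus). Sensory and motor relay nuclei followed, namely the ventral posterior thalamus (VPM/VPL, 12.97 and 13.14), the ventral anterior and ventrolateral thalamus (VA/VL, 12.87 and 12.80), the medial vestibular nucleus (MVe, 12.83 and 12.68), IC (12.53 and 12.47) and the lateral geniculate (LG, 12.41 and 12.29). The lowest values were hypothalamic, with 7.21 and 7.07 in VMH, 7.35 and 7.22 in ME and 7.24 and 7.40 in the suprachiasmatic nucleus (SCN). In this order 17 of the 47 neighbouring steps separated regions without overlap, against 8 for *Calb1* and 11 for *Calb2*. Such steps were not counted for all probe sets, so how usual these counts are is not known.

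To set neighbouring or connected regions side by side, 19 comparisons were made for each gene, 57 tests in all, each adjusted over all probe sets. *Calb1* passed in 10 of the 19 (6 higher, 4 lower in the region named first), *Calb2* in 12 (9 higher, 3 lower) and *Pvalb* in 14 (6 higher, 8 lower). Over all probe sets the 19 comparisons passed in 10.8% of cases as higher and in 11.5% as lower. All 3 genes passed in 5 comparisons. By their sampling days the regions were put here into 4 periods, which can each span different days. In 9 of the 19 comparisons the regions came from different periods, so that region and period cannot be told apart there. These were the comparisons within the cerebellum, of the dentate gyrus with the CA fields, of the retrosplenial and of the piriform cortex with other cortex, of the globus pallidus with CPu, of Hb with the other thalamus, of the lateral with the medial geniculate, of SCN with the ventral subparaventricular zone and of VTA with SN.

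**Figure D2:**
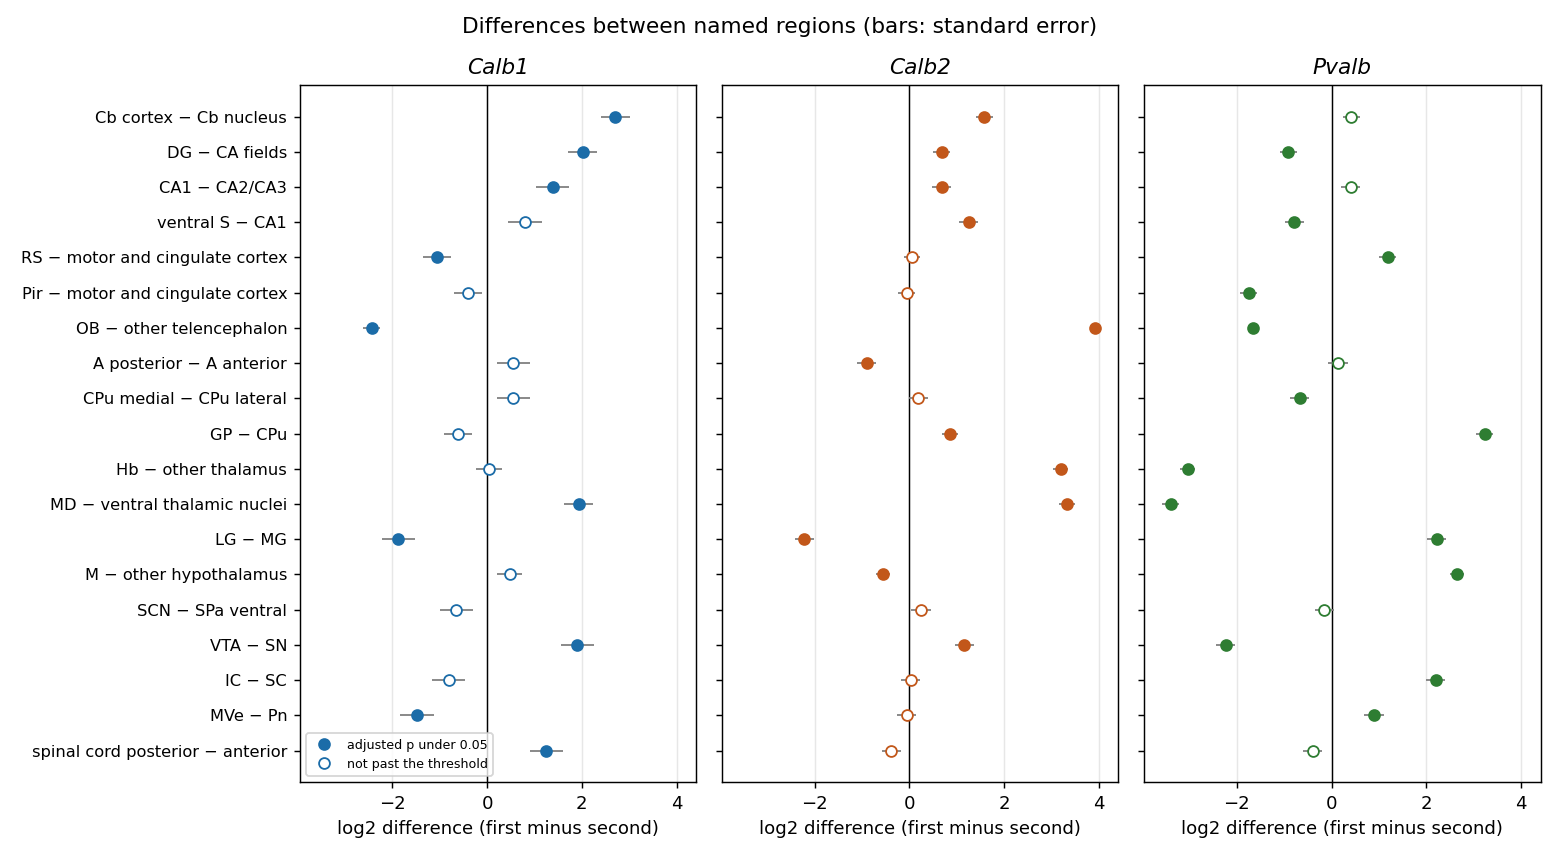
Log2 difference (x axes, first region or group minus second, with its standard error) of *Calb1*, *Calb2* and *Pvalb* in 19 comparisons of regions (rows). Filled points passed an adjusted p of 0.05, 36 of the 57, and open points did not. In the rows of DG, MD, LG and VTA, where each gene passed, the sign for *Pvalb* is opposite to that for *Calb1* and *Calb2*. The same signs occur in the rows of ventral S, CPu medial, Hb and MVe, where not every gene passed.

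Within the cerebellum, the cortex differed from the nucleus mainly in *Calb1* and *Calb2*. *Calb1* read between 13.54 and 13.69 on the 4 arrays of Cb vermis and Cb lobe, against 10.50 and 11.31 in Cb nucleus, a difference of 2.71 (SE 0.30, adjusted p = 6.18e-11). *Calb2*, known from granule cells here, lay between 12.00 and 12.62 in the cortex, against 10.72 and 10.79 in the nucleus, and was higher by 1.58 (SE 0.17, adjusted p = 3.51e-11). Neither gene overlapped between cortex and nucleus, as held for 59.7% of all probe sets, and 43.2% passed. *Pvalb* was 13.59 to 13.83 in the cortex and 13.31 and 13.31 in the nucleus, and its difference of 0.42 (SE 0.18) did not pass (adjusted p = 0.0502). Of the 9 Purkinje cell genes measured, 8 lay above their own median over the 48 regions in Cb nucleus, by a median of 0.80 over the 9 genes. They ranged from *Cacna1g*, a calcium channel gene, which lay below its median (-1.02), to *Pcp2*, a Purkinje cell protein, which lay farthest above it (5.55). *Car8*, a carbonic anhydrase-related Purkinje gene, read 10.12 and 11.09 there, with the higher value on the array that also had more *Calb1*. In the cortex 10 of 11 oligodendrocyte genes (median -1.80) and 13 of 15 genes of fast-spiking cells and perineuronal nets (median -0.65) were lower than in the nucleus. The part of these cell types in the values of the 3 genes was not tested.

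Within the thalamus, MD and the ventral nuclei differed in all 3 genes. In the mediodorsal nucleus (MD), which projects to prefrontal cortex, *Calb1* read 12.19 and 12.24, against 10.14 to 10.64 on the 4 arrays of VA/VL and VPM/VPL, the motor and somatosensory relays. *Calb2* read 12.19 and 11.54 in MD, against 8.20 to 8.81 in the ventral nuclei. *Pvalb* ran the other way, with 9.31 and 9.78 in MD, against 12.80 to 13.14 in the ventral nuclei. None of the 3 genes overlapped, as held for 31.2% of all probe sets. MD was higher by 1.93 for *Calb1* (SE 0.30, adjusted p = 1.82e-06) and by 3.33 for *Calb2* (SE 0.17, adjusted p = 1.64e-22), and lower for *Pvalb*, with a difference of -3.40 (SE 0.18, adjusted p = 1.25e-22), in a comparison that 13.1% of all probe sets passed. Against VPM/VPL alone, which was sampled in the same period as MD, the differences were 1.81, 3.30 and -3.51, all past the threshold. The myelin genes of oligodendrocytes moved in the same direction as *Pvalb*, with 11 of 11 lower in MD (median difference -1.23), as did the list of fast-spiking and perineuronal net genes, with 11 of 15 lower (median -0.63), and GABAergic neuron genes, with 6 of 7 lower (median -1.49), beside a median of 0.00 over all probe sets. Replicate 1 of MD had less *Pvalb* than replicate 2, and 1 of 15 fast-spiking and perineuronal net genes (median -0.15), 1 of 11 oligodendrocyte genes (median -0.06) and 3 of 7 GABAergic neuron genes (median -0.03) were higher on it. Such counts between the arrays of a region go by sign alone, while those between regions are of genes past the threshold. With 1 array left out the *Pvalb* difference ranged from -3.64 to -3.16. The part of these cell types in the values of the 3 genes was not tested, here or in the later comparisons. The lists given differ between comparisons, and lists not named in a comparison may run otherwise.

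The visual and auditory relays also differed in all 3 genes, with *Pvalb* opposite in sign to the others. *Calb1* read 10.45 and 10.02 in LG, against 12.15 and 12.06 in the medial geniculate (MG). *Calb2* read 10.02 and 9.71 in LG, against 12.01 and 12.15 in MG, while *Pvalb* read 12.41 and 12.29 in LG, against 9.81 and 10.45 in MG. The arrays of LG and MG did not overlap for any of the 3, as held for 44% of all probe sets. LG thus differed by -1.88 for *Calb1* (SE 0.35, adjusted p = 0.000381), -2.22 for *Calb2* (SE 0.20, adjusted p = 1.16e-11) and 2.22 for *Pvalb* (SE 0.20, adjusted p = 1.59e-11), where 4.15% of all probe sets passed. Oligodendrocyte genes were higher in LG for 6 of 11 (median 0.55), as were 1 of 15 fast-spiking and perineuronal net genes (median 0.08) and 1 of 7 GABAergic neuron genes (median 0.54). Replicate 1 of MG had less *Pvalb* than replicate 2. All 7 GABAergic neuron genes (median -0.57), all 11 of oligodendrocytes (median -0.18) and all 8 of the leptomeninges (median -0.34) were lower on it. Of the 15 fast-spiking and perineuronal net genes, 7 were higher on it (median -0.01), again by sign alone. With 1 array left out the *Pvalb* difference between LG and MG ranged from 1.90 to 2.54. Hb was set apart from the other 5 thalamic regions by *Calb2*, at 13.33 and 13.43 in Hb, against a lowest value of 8.20, a median of 9.86 and a highest of 12.19, a difference of 3.20 (SE 0.16, adjusted p = 6.11e-25). *Pvalb* was lower there, with 8.50 and 8.59 in Hb, against 9.31, 12.35 and 13.14 as lowest, median and highest of the others (difference -3.04, SE 0.16, adjusted p = 1.08e-23). *Calb1* in Hb lay within the range of the others and did not pass (0.04, adjusted p = 0.927), and 35.2% of all probe sets passed. In Hb 13 of 15 fast-spiking and perineuronal net genes (median -1.03), 6 of 7 GABAergic neuron genes (median -0.86) and 10 of 11 oligodendrocyte genes (median -0.87) were lower than in the other thalamic regions.

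The dopaminergic nuclei of the midbrain differed in all 3 genes as well. *Calb1*, known as a marker of VTA dopamine neurons, read 11.55 and 11.56 in VTA, against 9.06 and 10.24 in SN, a difference of 1.90 (SE 0.35, adjusted p = 5.18e-05). *Calb2* read 12.62 and 12.65 in VTA, against 11.24 and 11.70 in SN (difference 1.16, SE 0.20, adjusted p = 1.88e-05). *Pvalb*, which GABA neurons of the SN pars reticulata carry, read 9.44 and 9.32 in VTA, against 12.07 and 11.16 in SN (difference -2.23, SE 0.20, adjusted p = 3.84e-12). None of the 3 genes overlapped between VTA and SN, as held for 62.7% of all probe sets, and 21.1% passed. In VTA 7 of 15 fast-spiking and perineuronal net genes (median -0.32), 3 of 7 GABAergic neuron genes (median -0.45) and 4 of 9 astrocyte genes (median -0.22) were lower than in SN. Replicate 1 of SN had less *Calb1* and *Calb2* and more *Pvalb* than replicate 2, and all 9 dopaminergic neuron genes were lower on it, by a median of 0.70, while all 11 genes of oligodendrocytes (median 0.15), all 9 of astrocytes (median 0.38) and 7 of 8 of the leptomeninges (median 0.31) were higher on it. The part of these cell types in the 3 members' values was not tested, and the 3 calls held without either SN array.

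Between the colliculi *Pvalb* passed. IC, an auditory centre, read 12.53 and 12.47, against 10.49 and 10.11 in the superior colliculus (SC), a visual centre (difference 2.20, SE 0.20, adjusted p = 6.75e-12, with 13.5% of all probe sets passing). *Calb2* overlapped and did not pass (0.03, adjusted p = 0.942). For *Calb1* the IC arrays differed more from each other than from SC and read 11.78 and 8.93, on either side of 11.27 and 11.06 in SC. Only 11 of 45037 probe sets differed as far or farther between the IC arrays. With replicate 1 of IC left out the difference from SC was -2.23 (adjusted p = 4.66e-08), with replicate 2 left out it was 0.61 (adjusted p = 0.175), and with both it was -0.81 (adjusted p = 0.116). Genes of cerebellar cells were raised on the same array. *Pcp2* read 11.23 on replicate 1 and 7.80 on replicate 2 of IC, *Car8* read 11.15 and 7.27, and the 9 cerebellar granule cell genes were all higher on replicate 1, by a median of 2.03, as were 8 of 9 Purkinje cell genes (median 1.01), while all 11 oligodendrocyte genes were lower on it (median -0.43). In IC 8 of 15 fast-spiking and perineuronal net genes were higher than in SC (median 0.39). *Pvalb* differed by 0.06 between these arrays. In the tegmentum (Tg) *Calb1* read 9.54 and 10.47, and *Pcp2* read 7.64 and 9.92 on the same arrays. How far RNA of adjoining cerebellum set the *Calb1* values of IC and Tg was not tested.

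Further down the brainstem, MVe and the pontine nucleus (Pn) overlapped in *Calb2*, at 12.25 and 11.97 in MVe and 12.05 and 12.29 in Pn, with a difference of -0.06 (SE 0.20, adjusted p = 0.872). *Calb1* was lower in MVe, at 9.91 and 9.49, against 11.44 and 10.92 in Pn (difference -1.48, SE 0.35, adjusted p = 0.00166), and this call was lost without replicate 2 of MVe or replicate 1 of Pn (adjusted p = 0.0521 and 0.0596). *Pvalb* was higher in MVe, at 12.83 and 12.68, against 11.96 and 11.74 in Pn (difference 0.90, SE 0.20, adjusted p = 0.00101). These 2 genes did not overlap between the nuclei, as held for 63.3% of all probe sets, and 18% passed. In MVe 8 of 11 oligodendrocyte genes were lower than in Pn (median -0.67), and 4 of 7 GABAergic neuron genes were higher (median 1.01). In the spinal cord, *Calb1* read 10.61 and 10.90 in the posterior part, against 9.47 and 9.54 in the anterior part, with a difference of 1.25 (SE 0.35, adjusted p = 0.0475) in a comparison that 1.69% of all probe sets passed. This call was lost when any of the 4 arrays was left out (adjusted p from 0.138 to 0.243) and on each of the other 3 *Calb1* probe sets. For *Calb2* and *Pvalb* the differences were -0.38 and -0.40 and did not pass (adjusted p = 0.434 and 0.416).

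In the hippocampus the dentate gyrus (DG), whose granule cells are known to hold calbindin, read 11.95 and 11.97 for *Calb1*, against 10.59 and 10.68 in CA1 and 9.37 and 9.13 in CA2/CA3. DG exceeded the mean of these CA fields by 2.02 (SE 0.30, adjusted p = 4.47e-07). *Calb2* was also higher in DG, by 0.68 (SE 0.17, adjusted p = 0.00196), although 1 array of CA1 (9.32) lay above 1 of DG (9.30), and without replicate 2 of DG it did not pass (0.51, adjusted p = 0.127). *Pvalb*, carried here by basket cells, was lower in DG, at 9.13 and 9.03, against 9.75 to 10.28 in the CA fields (difference -0.91, SE 0.18, adjusted p = 5.40e-05). The DG comparison passed in 27.1% of all probe sets, and in DG 11 of 11 oligodendrocyte genes (median -1.39), 6 of 15 fast-spiking and perineuronal net genes (median -0.26) and 4 of 7 GABAergic neuron genes (median -0.41) were lower. CA1 exceeded CA2/CA3 by 1.38 in *Calb1* (SE 0.35, adjusted p = 0.00328) and by 0.68 in *Calb2* (SE 0.20, adjusted p = 0.013), with 17.5% of all probe sets passing, while *Pvalb* differed by 0.41 and did not pass (adjusted p = 0.166). Both calls were fragile. The one for *Calb1* was not made by any of the other 3 probe sets (adjusted p from 0.223 to 0.76), and the one for *Calb2* was lost without replicate 2 of CA1 or without either array of CA2/CA3 (adjusted p from 0.0503 to 0.212).

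The ventral subiculum (ventral S) differed from CA1 in the remaining genes. *Calb2* read 10.18 and 10.59 in ventral S, against 8.93 and 9.32 in CA1 (difference 1.26, SE 0.20, adjusted p = 1.35e-06), and *Pvalb* read 9.35 and 9.46 in ventral S, against 10.11 and 10.28 in CA1 (difference -0.79, SE 0.20, adjusted p = 0.00168). For *Calb1* the arrays read 11.46 and 11.41 in ventral S, against 10.59 and 10.68 in CA1. They did not overlap, as held for 74.2% of all probe sets, but the difference of 0.80 did not pass (adjusted p = 0.0639). It passed on each of the other 3 *Calb1* probe sets, at 1.47, 1.03 and 0.67, and 39.2% of all probe sets passed in this comparison. In ventral S 11 of 11 oligodendrocyte genes (median -1.40) and 9 of 15 fast-spiking and perineuronal net genes (median -0.46) were lower than in CA1.

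In the cortex *Pvalb* separated the areas. The retrosplenial cortex (RS) read 11.59 and 11.77, against 9.95 to 11.01 on the 4 arrays of motor and cingulate cortex (difference 1.19, SE 0.18, adjusted p = 2.34e-06), where 8.61% of all probe sets passed. The piriform cortex (Pir), the olfactory cortex, read 8.83 and 8.64, below all 4 of these arrays (difference -1.75, SE 0.18, adjusted p = 1.54e-11). Here 26.8% of all probe sets passed, and for 42.9% the arrays did not overlap. *Calb1* was lower in RS, at 10.29 and 10.58, against 11.08 to 12.01 in motor and cingulate cortex (difference -1.06, SE 0.30, adjusted p = 0.0176). It did not pass without either RS array, without replicate 1 of motor or without replicate 2 of cingulate cortex (adjusted p from 0.0525 to 0.268). *Calb1* in Pir and *Calb2* in both areas did not pass, with differences of -0.40, 0.06 and -0.06. Oligodendrocyte genes were higher in RS for 9 of 11 (median 0.82), and fast-spiking and perineuronal net genes were higher for 7 and lower for 2 of 15 (median 0.27). In Pir 5 of 15 fast-spiking and perineuronal net genes (median -0.22) and 6 of 9 astrocyte genes (median -0.47) were lower than in motor and cingulate cortex.

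The OB stood apart from the rest of the telencephalon in all 3 genes. *Calb2* read 13.14 to 13.33 on the 4 OB arrays, against a lowest value of 8.15, a median of 9.12 and a highest of 11.39 on the 30 arrays of the other 15 regions. The difference was 3.93 (SE 0.11, adjusted p = 4.17e-37), with no overlap, as held for 6.59% of all probe sets. *Calb1* read 8.76 to 9.15, against 9.13, 11.43 and 12.85 as lowest, median and highest (difference -2.44, SE 0.19, adjusted p = 5.26e-17). *Pvalb* read 7.61 to 7.88, against 7.70, 9.08 and 11.77 (difference -1.66, SE 0.11, adjusted p = 1.07e-19), and both of these genes overlapped with the others at 1 edge. In this comparison 55% of all probe sets passed, and all 7 GABAergic neuron genes (median 1.16) and 8 of 9 astrocyte genes (median 0.58) were higher in the OB. Against ventral S, CA1 and CA2/CA3, which were sampled in the same period, the differences were 3.91 for *Calb2*, -1.53 for *Calb1* and -2.04 for *Pvalb*, all past the threshold.

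Among the basal ganglia, the globus pallidus (GP) was set apart from CPu by *Pvalb*, which many of its projection neurons carry. It read 11.47 and 11.56 in GP, against 7.91 to 8.63 on the 4 arrays of CPu (difference 3.24, SE 0.18, adjusted p = 8.89e-22), in a comparison that 27.1% of all probe sets passed. *Calb2* was 9.38 and 9.02 in GP, against 8.15 to 8.49 in CPu (difference 0.86, SE 0.17, adjusted p = 8.52e-05). *Calb1* read 11.78 and 12.00 in GP, against 12.06 to 12.85 in CPu. The arrays did not overlap, as held for 36.2% of all probe sets, but the difference of -0.61 did not pass (adjusted p = 0.136). It passed on 2 of the 3 other *Calb1* probe sets, at -1.77 and -0.82. Oligodendrocyte genes were higher in GP for 10 of 11 (median 1.30), and fast-spiking and perineuronal net genes for 10 of 15 (median 0.65), while 7 of 8 striatal projection neuron genes were lower (median -1.41). Within CPu, *Pvalb* read 7.91 and 7.97 in the medial part, against 8.63 and 8.60 in the lateral part (difference -0.67, SE 0.20, adjusted p = 0.0275), where 8.78% of all probe sets passed, and this call was lost without any of the 4 arrays (adjusted p from 0.056 to 0.231). *Calb1* and *Calb2* did not pass there, with 0.55 and 0.19. In the amygdala *Calb2* alone passed, at 10.80 and 10.12 in the posterior part, against 11.39 and 11.33 in the anterior part (difference -0.90, SE 0.20, adjusted p = 0.00205), with 8.34% of all probe sets passing. Without replicate 2 of A posterior the difference was -0.56 and did not pass (adjusted p = 0.192). In A posterior 9 of 11 oligodendrocyte genes were lower than in A anterior (median -1.16).

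In the hypothalamus *Pvalb* was highest in M. This region, a relay of the limbic circuit to the anterior thalamus, read 9.997 and 10.70, against a lowest value of 7.07, a median of 7.55 and a highest of 9.09 on the 22 arrays of the other 11 regions (difference 2.65, SE 0.15, adjusted p = 1.21e-20), where 14.7% of all probe sets passed. The regional means of the other 11 ran from 7.14 in VMH to 8.86 in the lateral hypothalamus (LH). Against the 4 regions sampled in the same period as M, the difference was 2.44 and passed. *Calb2* read 11.61 and 10.78 in M, against 10.48, 11.91 and 12.42 as lowest, median and highest of the others (difference -0.56, SE 0.15, adjusted p = 0.00566). Without replicate 2 of M it was -0.15 and did not pass (adjusted p = 0.796), and without replicate 1 it was -0.97. The arrays of M differed in cell type genes too, since 6 of 7 GABAergic neuron genes were higher on replicate 1 (median 0.85) and all 11 oligodendrocyte genes were lower on it (median -0.40). In M 5 of 7 GABAergic neuron genes were lower than in the other hypothalamic regions (median -1.08), while 7 of 11 oligodendrocyte genes (median 0.59) and 7 of 15 fast-spiking and perineuronal net genes (median 0.15) were higher. *Calb1* in M was within the range of the others and did not pass (0.48, adjusted p = 0.249), but 2 of its other 3 probe sets called it higher, at 1.29 and 0.43. SCN, the circadian pacemaker, and the ventral subparaventricular zone (SPa ventral), a main target of it, differed by -0.65, 0.25 and -0.15 in *Calb1*, *Calb2* and *Pvalb*, none past the threshold (adjusted p = 0.135, 0.336 and 0.585), in a comparison that 39.6% of all probe sets passed. The arrays of SCN and SPa ventral did not overlap for any of the 3 genes, as held for 73.9% of all probe sets.

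Across the 48 regional means the genes were only weakly correlated with each other. Pearson's r was 0.07 between *Calb1* and *Calb2*, -0.19 between *Calb1* and *Pvalb* and -0.14 between *Calb2* and *Pvalb*, with Spearman's rho of 0.08, -0.32 and -0.17, as a description over 48 regions that share their normalization. Only Cb lobe was among the 12 highest regions of all 3 genes. Set against each gene's own mean over the 48 regions, 4 regions lay above it for all 3 genes (MG, M, Cb vermis and Cb lobe), and 4 lay below it for all 3, namely the lateral septum, Pir, Tu and CA2/CA3.

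The remaining regions were above the mean for 1 or 2 of the genes. *Calb1* and *Calb2* without *Pvalb* were above their means in 12 regions, 9 of them hypothalamic, with anterior amygdala, MD and VTA. *Calb2* and *Pvalb* without *Calb1* were above in 9 regions, all of midbrain, pons or spinal cord (PAG, the periaqueductal gray, SC, IC, SN, Tg, Pn, MVe and both parts of the spinal cord). *Pvalb* alone was above in 7 (RS, motor cortex, CA1, VA/VL, VPM/VPL, LG and Cb nucleus), *Calb1* alone in 6 (ventral S, DG, A posterior, both parts of CPu and ME), *Calb2* alone in 4 (both parts of OB, Hb and LH), and *Calb1* with *Pvalb* in 2 (cingulate cortex and GP).

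**Figure D3:**
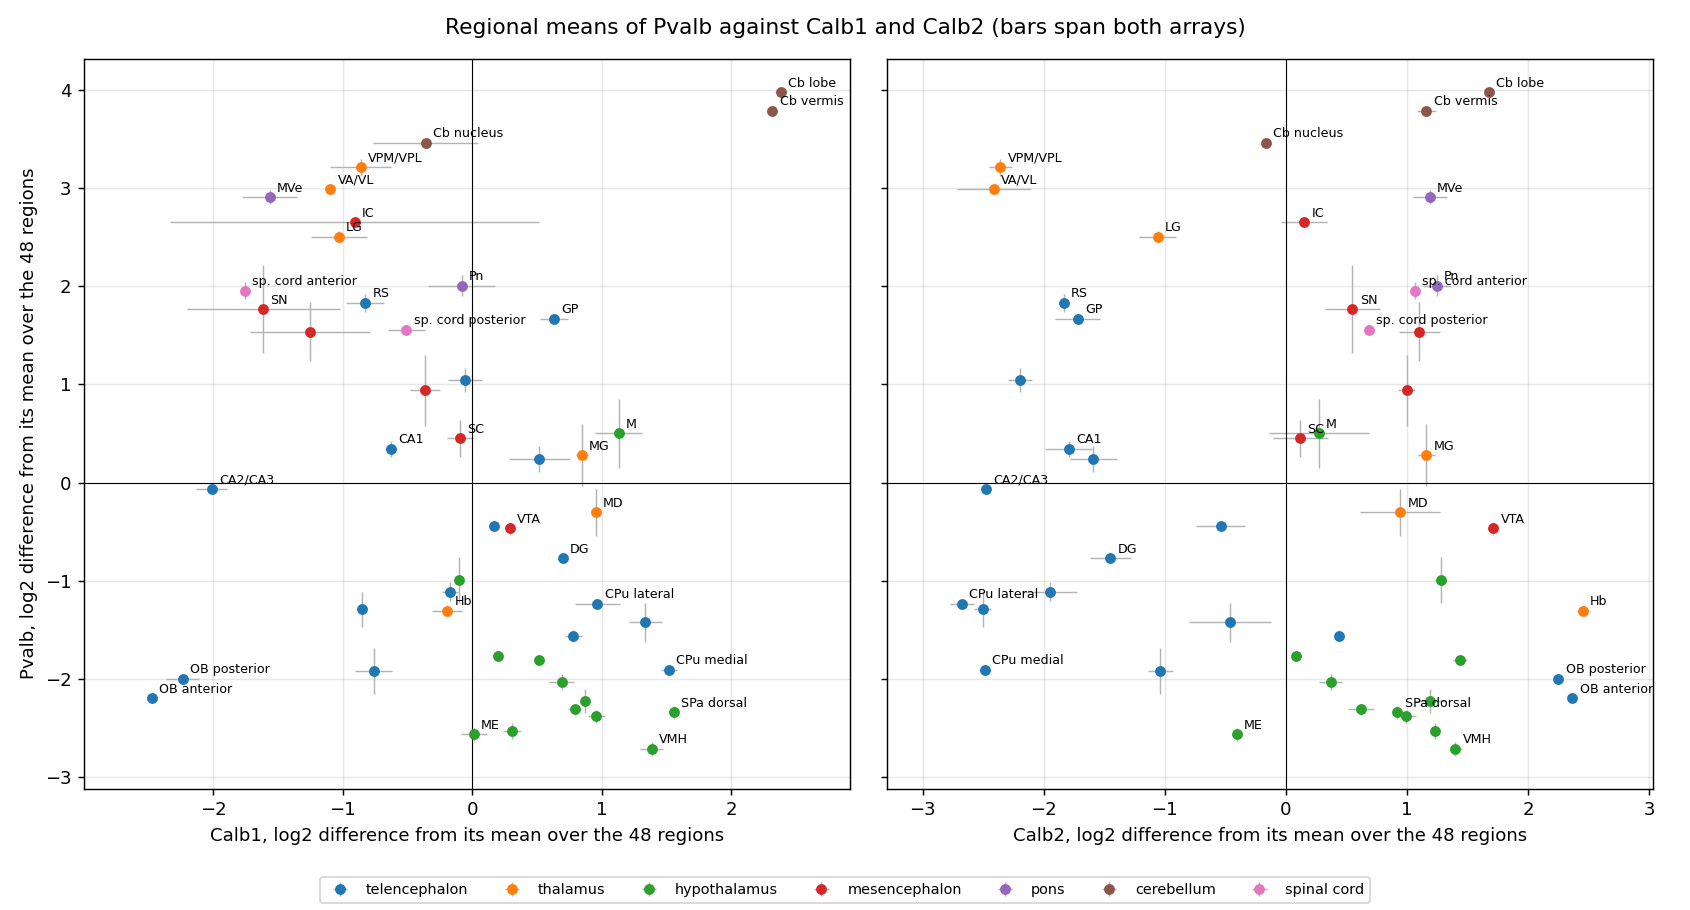
Regional means of *Pvalb* (y axes) against *Calb1* (left) and *Calb2* (right), each as the log2 difference from the gene's own mean over the 48 regions, with bars spanning both arrays and colours for divisions. The cerebellar cortex lies at the upper right in both panels, the OB at opposite ends of the x axes, and the hypothalamus along the bottom, with M above the rest; r over the 48 points is -0.19 on the left and -0.14 on the right.

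Genes with a like pattern were found for each member from the Pearson's r of the 48 regional means, given as a description. For *Pvalb* the highest values were those of *Acyp1*, an acylphosphatase (0.92), *Esrrg*, the nuclear receptor ERR gamma (0.86), *Luzp1*, a leucine zipper protein (0.86), *Syt2*, a fast calcium sensor of transmitter release (0.85), and *Scn1a*, the sodium channel Nav1.1 (0.85). The lowest were *2810004N23Rik* (-0.88) and *Eef1a1*, a translation elongation factor (-0.86). *Calb2* was closest to *Podxl2*, a sialomucin (0.80), *Pold2*, a DNA polymerase subunit (0.80), *Cntnap4*, a neurexin family protein (0.79), *Rfx5*, a transcription factor (0.79), and *Mtss1*, an actin-binding protein (0.77), and farthest from *Chn1*, the Rac GTPase-activating protein chimerin (-0.81), and *2900055J20Rik* (-0.78). The pattern of *Calb1* was less shared. Its highest r were 0.69 for *Cfp*, the complement factor properdin, 0.66 for *Rbm4b*, an RNA-binding protein, 0.65 for *Plekhg4*, 0.64 for *Dek*, a chromatin protein, and 0.64 for *Aatf*, and its lowest were -0.69 for *Arhgef6*, a guanine nucleotide exchange factor, and -0.66 for *Ano4*. An r above 0.5 was reached by 0.566% of 18192 other genes for *Calb1*, 5.50% for *Calb2* and 5.67% for *Pvalb*.

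*Pvalb* ran with part of the genes of fast-spiking neurons. Of 15 measured genes of fast-spiking cells and perineuronal nets, the extracellular coat of such cells, 8 had an r above 0.5 with *Pvalb* (median 0.66), none had with *Calb1* (median -0.34) and none with *Calb2* (median -0.03). With *Calb1* 3 of the 15 were below -0.5, beside 0.704% of all genes, and with *Calb2* and *Pvalb* none were. Besides *Syt2* and *Scn1a* the 8 genes above 0.5 with *Pvalb* were *Kcnab3*, a potassium channel beta subunit (0.78), *Nefh*, the heavy neurofilament (0.77), *Kcnc1*, the channel Kv3.1 (0.77), *Hapln4*, a link protein of the nets (0.72), *Scn4b*, a sodium channel beta subunit (0.67), and *Cplx1*, complexin 1 (0.66). The fast-spiking genes *Kcnc2* and *Kcns3* were not above 0.5. The other net genes were lower, with 0.42 for *Acan* (aggrecan), 0.33 for *Hapln1* (a link protein), 0.05 for *Bcan* (brevican), -0.41 for *Ncan* (neurocan) and -0.22 for *Tnr* (tenascin R). Myelin genes ran with *Pvalb* too, since 8 of 11 oligodendrocyte genes were above 0.5 (median 0.54), among them *Ermn* (0.62) and *Mag* (0.59). Of 7 GABAergic neuron genes, 0 were above 0.5 and 2 were below -0.5 (median -0.13), namely *Dlx1* (-0.58) and *Dlx5* (-0.51), developmental transcription factors, while *Gad1*, a GABA-synthesising enzyme, was at 0.11. Over all genes 5.67% were above 0.5 and 5.61% below -0.5. Of 9 Purkinje cell genes 4 were above 0.5 for *Pvalb* (median 0.46) and 1 for *Calb1* (median 0.16), which was *Ppp1r17* (0.53).

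**Figure D4:**
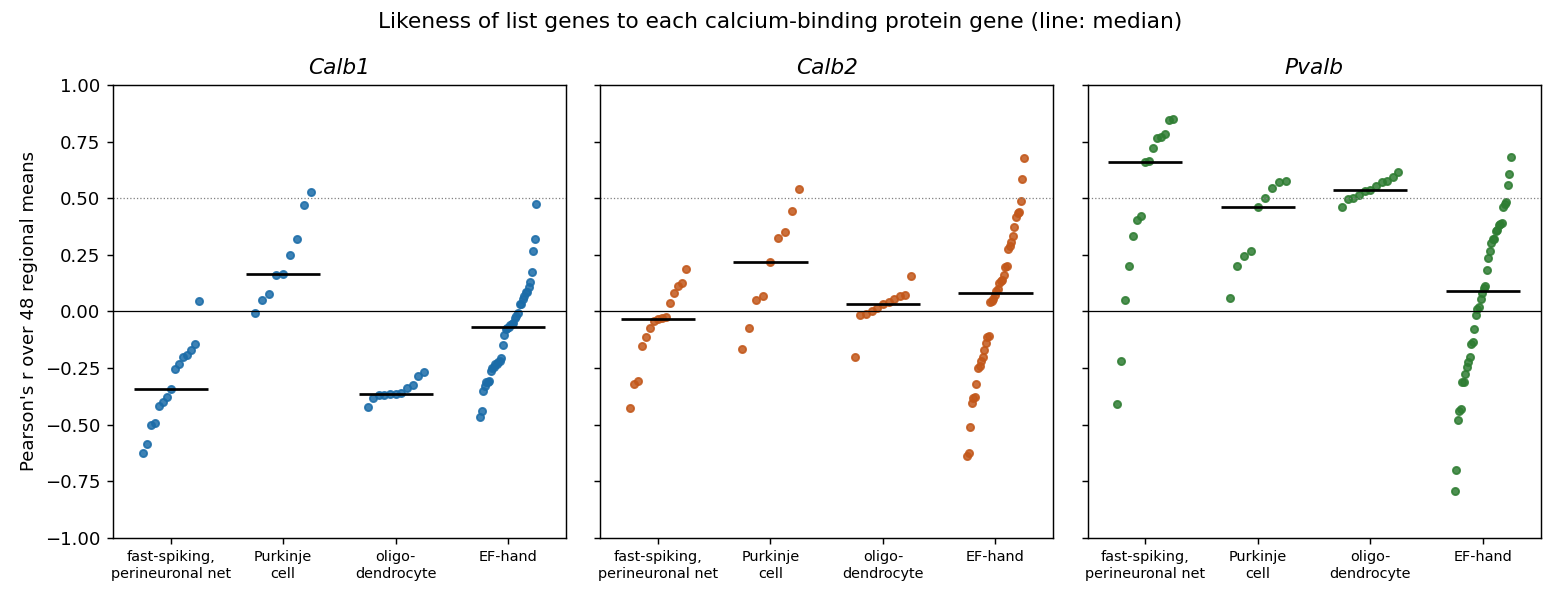
Pearson's r over 48 regional means (y axes) of the measured genes of 4 lists (x axes) with *Calb1*, *Calb2* and *Pvalb*, 1 point per gene, with a line at the median of a list and a dotted line at 0.5. The medians of the fast-spiking and perineuronal net and the oligodendrocyte genes are 0.66 and 0.54 with *Pvalb*, -0.34 and -0.37 with *Calb1*, and -0.03 and 0.03 with *Calb2*.

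Other EF-hand genes did not follow the 3 members as a group. Of 44 such genes on a list that took in S100 proteins, calmodulins, neuronal calcium sensors and calneurins, 38 had a probe set naming them alone, and 37 of these passed the F test over regions (91.1% of all probe sets did). With *Calb1* none of the 38 had an r above 0.5 or below -0.5, with *Calb2* 2 were above and 3 below, and with *Pvalb* 3 were above and 2 below. Over all genes 0.566% were above and 0.704% below with *Calb1*, 5.50% and 2.73% with *Calb2*, and 5.67% and 5.61% with *Pvalb*. In the 5 comparisons in which all 3 members passed, the counts of the 38 were 5 higher and 12 lower in MD than in the ventral thalamus, 4 higher and 7 lower in LG than in MG, 11 higher and 9 lower in VTA than in SN, 4 higher and 18 lower in DG than in the CA fields, and 15 higher and 15 lower in OB than in the other telencephalon. As shares of the 38 these were 44.7%, 28.9%, 52.6%, 57.9% and 78.9%, beside 13.1%, 4.15%, 21.1%, 27.1% and 55% of all probe sets. Their median differences were -0.03, -0.05, -0.03, -0.26 and 0.01 in the same order, beside 0.00, -0.01, -0.02, 0.02 and -0.06 over all probe sets. The 11 calls of LG against MG were 6 and 5 without replicates 1 and 2 of LG and 7 without replicate 1 of MG, and the 20 of VTA against SN were 13 without replicate 2 of VTA and 12 without replicate 1 of SN.

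Among these EF-hand genes the largest shift in the 5 comparisons was that of *Necab1*, a neuronal EF-hand protein, which was higher in MD than in the ventral nuclei by 5.48 (SE 0.20, adjusted p = 4.99e-29). It was also lower in LG than in MG (-1.74, adjusted p = 8.62e-07) and higher in VTA than in SN (1.87, adjusted p = 3.04e-08), in the direction of *Calb1* and *Calb2* each time. In MD *Hpcal4*, a visinin-like calcium sensor, was higher by 2.20, while *Cabp1*, a calmodulin-like protein, and *Kcnip1*, a potassium channel interacting protein, were lower, with -1.75 and -1.39. In OB *Kcnip1* was higher by 1.95 and *Scgn*, secretagogin, by 1.41, while *Caln1* (calneuron 1) and *Hpca* (hippocalcin) were lower, with -2.85 and -2.26. In DG *Ncald* (neurocalcin delta) was higher by 1.37 and *Hpcal1* by 0.63, and *Calml4* and *S100b* were lower, with -1.85 and -1.18. In LG *Kcnip1* was higher by 1.04 and *Cabp1* by 0.72, and *Caln1* was lower (-1.24). In VTA *Rcn1* (reticulocalbin 1) was higher by 1.36, and *Tesc* (tescalcin) and *S100a6* were lower, with -1.18 and -0.95.

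Retina, pituitary and pineal gave values without a test. *Pvalb* in the retina read 13.30 and 13.03, below all cerebellar arrays and overlapping with VPM/VPL. In the pituitary it was 7.28 and 7.57, and in the pineal 6.89 and 7.04, below every one of the 48 regions. Fast skeletal muscle is also known for abundant parvalbumin, and 12 of 13 skeletal muscle genes in the retina samples lay above the highest of the 48 regions. Set against their own medians over the 48 regions, the 13 genes differed by -0.16 to 8.06 (median 5.56), with *Ckm* (muscle creatine kinase) at 13.47 and 13.37 and *Acta1* (skeletal actin) at 14.00 and 13.91. In these samples 6 of 8 anterior pituitary genes and all 8 photoreceptor genes were above the 48 regions too. Of 6 genes of retinal ganglion, amacrine and bipolar cells, 4 lay above their own median and 2 above the 48 regions. Their differences from that median ran from -4.19 to 2.20. The part of muscle RNA in the retinal *Pvalb* was not tested. *Calb2* in the retina read 9.49 and 10.46, and *Calb1* read 8.36 and 7.91 there, 10.98 and 10.92 in the pituitary and 5.62 and 5.98 in the pineal, which was the lowest of the 51 regions on this probe set. *Calb2* was at 8.40 and 8.26 in the pituitary and at 7.62 and 7.83 in the pineal.

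The 4 probe sets of *Calb1* followed the same order of regions in large part. The other 3 had an r of 0.93, 0.96 and 0.84 with the one used, and they called 12, 16 and 10 regions higher and 19, 17 and 9 lower. All 4 passed with the same sign in the comparisons of the cerebellar cortex with its nucleus, DG with the CA fields, OB with the other telencephalon and MD with the ventral nuclei. Their own levels were lower on average, at 7.35, 6.92 and 6.62 over the 48 regions, which says nothing of transcript amounts, since levels of different probe sets were not compared.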

How the data were processed

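The authors normalized the arrays with RMA, and the deposited table holds log2 expression values per probe set, from 3.88 to 14.87, with array medians of 7.32 to 7.46. No version or genome build is given in the sources used here. After leaving out 64 control probe sets, 45037 remained, of which 34945 name 1 gene, 932 several and 9160 none in the platform annotation. Arrays give no counts, and 2 arrays per region limit the precision.

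A linear model of the 96 arrays held a coefficient for every region (limma 3.58.1, R 4.3.3), with 48 residual and 6.63 prior degrees of freedom. P-values were adjusted after Benjamini-Hochberg over all probe sets, with a threshold of 0.05. The model was tested on simulated data, where its estimates lay close to the shifts put in. Noise there was independent between arrays and only Hb was shifted. It thus tests neither arrays that deviate together nor single arrays that stray. A difference is the region or group named first minus the other, and groups are means of regions. List genes called higher or lower between regions passed the threshold. Between the arrays of a region they were counted by sign alone, and the like share over all probe sets is not given. Levels, ranks and Pearson's r over regional means, with 1 probe set per gene and a highest regional mean of at least 7 for the genes with a like pattern, are descriptions.

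The members, the comparisons and the lists (EF-hand, GABAergic neuron, fast-spiking and perineuronal net, Purkinje cell, cerebellar granule cell, dopaminergic neuron, oligodendrocyte, skeletal muscle, anterior pituitary and photoreceptor genes, among others used as a check of regions) were chosen with earlier results of these data known. Named are the members, the 5 genes of highest and 2 of lowest r with each, up to 2 EF-hand genes per direction and comparison, and list genes where they move with a member. The cell type lists beside a comparison are thus a choice, which does not show how the other lists ran. All measured marker genes of the cerebellar cortex, DG, OB, Hb, VTA, SN, CPu, pituitary and pineal lay above their median over the 48 regions in the region they mark. In the retina this held for all 8 photoreceptor genes but for only 4 of 6 genes of ganglion, amacrine and bipolar cells. Sampling periods are blocks of months set here from the study's list of sampling days, and the study does not name them. Regions of the same period can still differ in sampling day. Alternatives were cyclic loess normalization, a minimum of 7, a variance trend with robust estimation, a replicate block, a sampling day block, all 51 regions in the fit, the other *Calb1* probe sets, each array left out, and other measures of likeness. Comparisons within 1 sampling period for MD, OB and M were chosen after seeing the data. Figures were drawn with matplotlib.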

Additional observations from a re-analysis of the deposited data

How the results depend on the processing

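Of 1035 alternative values for 76 results, 958 kept their direction and their side of the threshold or stayed within 1.5 times a count. With a replicate block, which took the replicate number as a term, *Pvalb* in the cerebellar cortex against its nucleus passed (0.42, adjusted p = 0.0494) and *Calb1* in posterior against anterior spinal cord did not (1.25, adjusted p = 0.0507), and no other call changed. The numbers did not pair the arrays throughout, since only 282 of 1128 pairs of regions had deviations correlated above 0.1 (mean r 0.00853). This r ran from -0.569 to 0.528, so arrays of some regions deviated together or in opposite directions. Its mean cannot tell whether regions sampled on the same days were paired. For the sampling day block the consensus correlation was 0.0608. The main model took the arrays as independent. A minimum of 7 also let *Pvalb* in the cerebellum pass (0.42, adjusted p = 0.0416), and a variance trend with robust estimation also ended the spinal cord call (1.25, adjusted p = 0.0663). Cyclic loess let *Calb1* pass in ventral S against CA1 (1.00, adjusted p = 0.0242) and turned *Calb2* in Pir to 0.043, which did not pass. The sampling day block and all 51 regions changed no call and moved no count by over 1.5 times. On *Calb1* probe sets 1448738_at, 1456934_at and 1458836_at, CA1 against CA2/CA3 (0.76, 0.50 and 0.082) and the spinal cord (0.93, 0.72 and 0.45) no longer passed, and ventral S did (1.47, 1.03 and 0.67). On 1448738_at Pir (-0.95), GP (-1.77) and M (1.29) passed, MVe (-1.03) did not, and A posterior turned to -0.38. On 1456934_at GP passed (-0.82). On 1458836_at M (0.43) and SCN (-0.39) passed, RS (-0.21), LG (-0.33), VTA (0.14) and MVe (-0.16) did not, Hb turned to -0.11, and 10 regions were called higher and 9 lower. The cause of these changes was not tested.

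With 1 array left out, the remaining array of a region was assumed to vary like those of the other regions. *Calb1* then ranged from -1.20 to -0.91 in RS, -0.072 to 0.16 in Hb, -2.23 to 0.61 in IC, -1.74 to -1.22 in MVe and 1.10 to 1.39 in the spinal cord, and with each region's own replicate 1 or 2 left out in turn, 6 to 10 regions were called higher and 9 lower. *Calb2* ranged from -0.041 to 0.15 in RS, -0.28 to 0.17 in Pir, 0.51 to 0.86 in DG, 0.49 to 0.87 in CA1 against CA2/CA3, -1.24 to -0.56 in A posterior, -0.97 to -0.15 in M, -0.19 to 0.26 in IC and -0.20 to 0.081 in MVe. *Pvalb* ranged from -0.056 to 0.33 in A posterior and -0.70 to -0.64 in CPu medial. EF-hand genes called numbered 5 to 8 in LG and 12 to 18 in VTA. Of the 5 genes most like a member, 1 of *Calb1* and 3 of *Calb2* were shared with Spearman's rho, and 2 to 3 and 3 to 4 with 1 replicate alone.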

Other observations

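Some EF-hand genes ran with or against single members over the 48 regional means, as a description chosen after their values were seen. With *Pvalb*, r was 0.68 for *Efhd1*, a mitochondrial EF-hand protein, and 0.61 for *Cabp1*, against -0.79 for *Rcn1* and -0.70 for *Hpcal4*. With *Calb2*, r was 0.68 for *Rcn2*, a reticulocalbin of the endoplasmic reticulum, and 0.59 for *Kcnip1*, against -0.64 for *Hpca* and -0.62 for *Ppp3r1*, the regulatory subunit of calcineurin.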
